A study of Mus musculus with 6 samples.

Results

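The 40 genes described here encode the actin cytoskeleton, the adhesions that anchor it, and the SRF and YAP regulators tied to it, in mouse epiblast stem cells with and without Activin A. They were taken as a named list, out of 52609 annotated genes in the data, and were drawn up with results of this comparison already known. Their folds and calls are therefore a description, given without p-values and beside the share of all genes that behaved alike. By role they are 3 actins, 6 actin-binding proteins of the calponin and caldesmon kind, 4 tropomyosins, 5 chains of myosin II, 5 crosslinkers, 7 proteins of focal adhesions and LIM domains, SRF itself, 2 targets of YAP, 2 Hippo kinases, YAP and its paralogue TAZ (Wwtr1), and 3 TEAD factors.

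Epiblast stem cells are primed pluripotent cells taken from the epiblast of the embryo, and the series asks by its title how Activin A affects their allocation to ectoderm. Polyadenylated RNA was sequenced from 3 libraries of each group. Both groups grew on inactivated mouse embryonic fibroblasts in serum replacement medium and were given the same 3 agents. These were 10 ng/mL FGF2, 5 µM IWP2 (a blocker of Wnt secretion) and 2 µM SB431542 (an inhibitor of the type I receptors of Activin, Nodal and TGF-beta). One group also received Activin A at 20 ng/mL and the other did not, so Activin A was compared in the presence of an inhibitor of its receptors. The labels are not uniform on this point. The treatment text names Activin A for all 6 samples, and the growth factor label of replicate 1 without Activin A names it too, against the title and genotype label of that sample. The design text mentions 2 lines with 3 replicates each, so a difference between lines cannot be told apart from Activin A. Nothing says that replicates were separate cultures, so the spread between them may be technical, and that is the only spread the p-values take in.

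Serum response factor (SRF) binds a short promoter element, the CArG box, and works with cofactors of the MRTF family. MRTFs are held back by free actin monomers, so the assembly of filaments releases them to activate genes for actin, myosin and adhesion proteins. YAP and TAZ are coactivators that bind TEAD factors, respond to tension and cell spreading, and are phosphorylated and kept out of the nucleus by the Hippo kinases LATS1 and LATS2. Actin cables under tension also shape epithelia of the early embryo, including the neural plate.

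The promoters of several members carry the elements these factors bind. RefSeq windows (GRCm38.p6, 250 bases before to 50 after an annotated start) matched 35 members with 41 windows; Actb, Tagln, Pxn, Tead1 and Tead4 were not matched. A CArG box on either strand lay in 14.6% of the members' windows and in 1.63% of all 32851 windows. These matches describe letters in a window and not binding, which was not measured. The members were listed for their ties to actin, SRF and YAP. Neither this share nor that of the TEAD motif below is therefore read as a result about them. The stretches below carry the boxes in the 6 members where one was found, with the box in capitals and 20 bases on each side, read 5′ to 3′ on the strand of the gene. None of them overlaps an annotated exon.
Srf, chr17:46556195-46556264, minus strand: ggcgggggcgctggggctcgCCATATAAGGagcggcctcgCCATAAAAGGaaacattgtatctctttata
Cnn2, chr10:79988524-79988573, plus strand: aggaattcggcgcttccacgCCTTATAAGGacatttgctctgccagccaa
Actg1, chr11:120348556-120348605, minus strand: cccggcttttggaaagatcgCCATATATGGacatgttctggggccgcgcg
Myl9, chr2:156775283-156775332, plus strand: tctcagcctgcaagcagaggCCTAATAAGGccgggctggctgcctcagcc
Vcl, chr14:20929151-20929200, plus strand: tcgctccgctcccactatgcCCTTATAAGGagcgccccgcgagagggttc
Lima1, chr15:99820167-99820216, minus strand: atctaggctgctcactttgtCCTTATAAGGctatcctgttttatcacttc
Srf is the only one of these with 2 boxes, 82 to 73 and 62 to 53 bases before its start. The box of Actg1 lies 90 to 81 bases before its start and that of Vcl 227 to 218 bases before.

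The core TEAD motif GGAATG, or CATTCC on the other strand, lay in 17 of the members' windows, belonging to 15 members. That is 41.5% of their windows, against 14.7% of all windows. For Tagln2, Tpm1, Amotl2, Myl12a, Acta2 and Ankrd1, 6 of the 15, the stretch around the motif overlaps an annotated exon, and none of it is shown. A GGAATG can share its first letters with the end of a CArG box, but no such overlap occurred among the members. Examples are shown for Yap1, for Vcl, which is the only member with both motifs, for the 2 filamins, and for the upstream start of Cald1, which returns below, with the motif in capitals.
Yap1, chr9:8004712-8004757, minus strand: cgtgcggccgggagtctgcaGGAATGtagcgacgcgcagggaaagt
Vcl, chr14:20929235-20929280, plus strand: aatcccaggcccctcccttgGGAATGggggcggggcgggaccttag
Flna, chrX:74246655-74246700, minus strand: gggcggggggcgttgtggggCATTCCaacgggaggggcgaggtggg
Flnc, chr6:29433132-29433177, plus strand: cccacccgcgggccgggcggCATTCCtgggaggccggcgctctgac
Cald1, chr6:34598331-34598376, plus strand: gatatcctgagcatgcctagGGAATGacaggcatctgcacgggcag
Of the members shown here, Yap1 and Actg1 were not called between the groups, Lima1 was lower and the others were higher without Activin A.

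All 40 genes passed the filter on low counts. Without Activin A, 29 of them were called higher and 1 was called lower, where a call is an adjusted p under 0.05 in edgeR's quasi-likelihood test over 15448 genes. Over all genes tested, 14.0% were called higher and 15.2% lower (29.2% in either direction). These shares also stand beside the counts by role below, where a gene that rose is one called higher. The members' median log2 fold change, without minus with Activin A, was 0.33, from -0.25 to 1.28, and the median over all genes was 0.0012. In 34 members every library without Activin A stood above every library with it, which was the case for 21.3% of all genes. In 2 members, Lima1 and Cnn3, every library stood below, as in 21.6% of all genes (42.9% did not overlap in either direction), and in Myl12b, Pdlim7, Vasp and Tead2 the groups overlapped. The 40 genes together held 15927 to 17008 CPM (counts scaled to a common library total by the TMM method) with Activin A and 20320 to 20905 without. Since these are bulk samples, fewer cells of a type and less RNA per cell cannot be told apart.

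**Figure D1:**
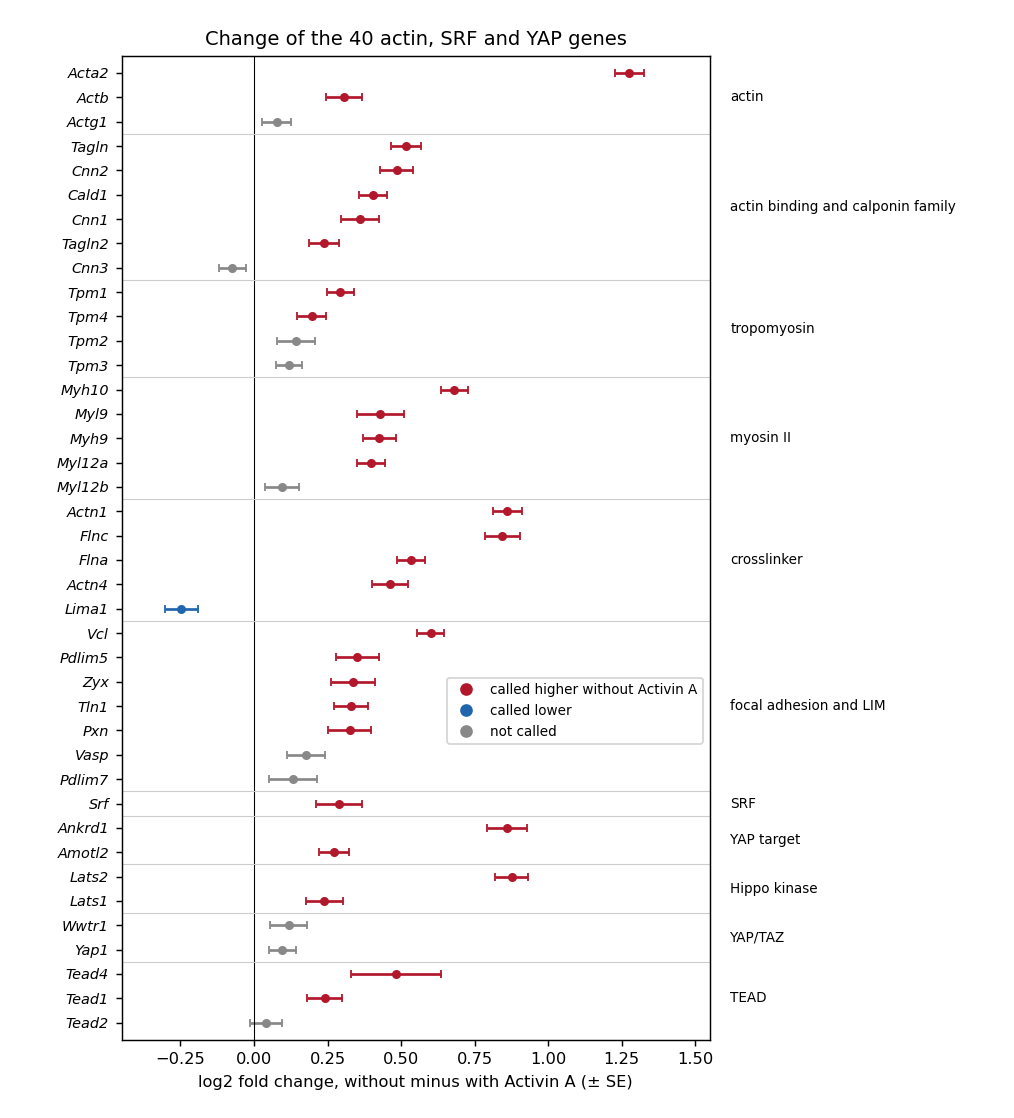
Log2 fold change (without minus with Activin A) of each of the 40 genes with its standard error, grouped by role, with colour showing the call over all genes tested. Nearly all points lie right of 0, Acta2 stands farthest right at 1.28, and Lima1 at -0.25 and Cnn3 at -0.07 are the points left of it.

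The actins differed widely in how far they moved. Acta2 encodes the actin of smooth muscle, which is also made in contractile non-muscle cells (chr19:34241090-34255590, minus strand, GRCm38). Its level was 164, 174 and 166 CPM in replicates 1 to 3 with Activin A and 395, 407 and 419.7 CPM without. The groups lay far apart, and the fold was 2.42 (log2 1.28 ± 0.05, SE), the largest among the members. Actb, the cytoplasmic beta-actin, stood at 1881, 1817 and 1621 CPM with Activin A and at 2246, 2061 and 2268 without, a log2 fold of 0.31 ± 0.06. Actg1, the cytoplasmic gamma-actin, stood at 5550.0, 5565 and 5218 CPM with and at 5742, 5619.6 and 5871 CPM without. Its groups did not overlap, but the distance was small (log2 0.08 ± 0.05) and it was not called. Both cytoplasmic actins thus had far smaller folds than Acta2. Actb had no promoter window, and that of Acta2 lies mostly inside the annotated gene, so the sequence upstream of these genes was largely not scanned.

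Compared per length, Acta2 remained a minor actin. Levels between genes are given in TPM (transcripts scaled by length and library total) over transcripts of at least 500 bases, because shorter transcripts took a large part of the deposited TPM of some genes on few reads. In Actb such short transcripts held 51.4% of the TPM with Activin A and 2.12% of the reads. On the restricted scale Actg1 was at 2283 ± 67.6 TPM (SD, n = 3) with Activin A and Actb at 1209 ± 116. Acta2, which has no short transcript, was at 68.3 ± 3.36 TPM with Activin A and 167 ± 6.71 without. The lowest member was Tead4, at 1.23 ± 0.18 TPM with Activin A and 1.73 ± 0.22 without, on 38 to 94 reads per library.

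**Figure D2:**
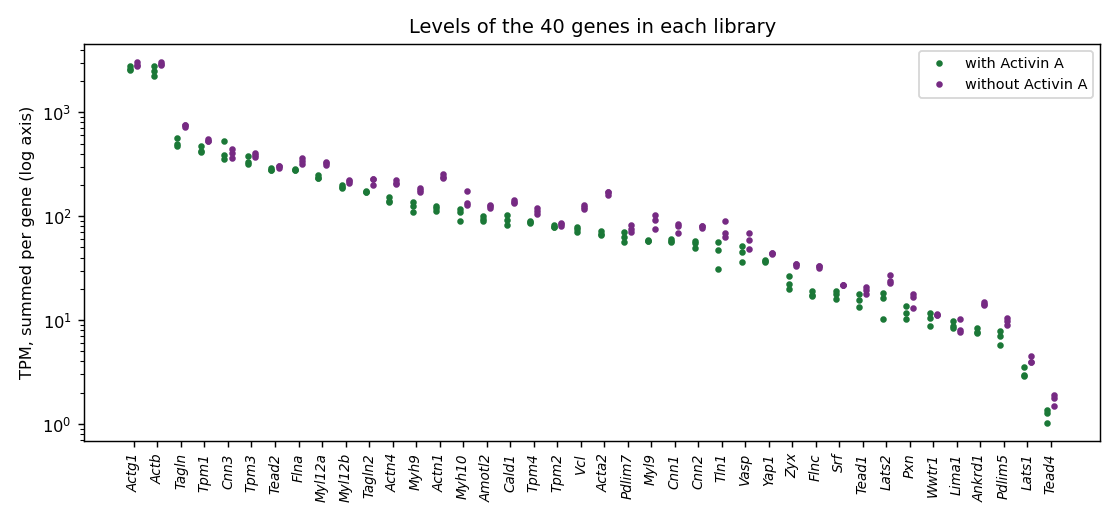
Deposited TPM of each of the 40 genes, summed over its transcripts of every length, in each library (log axis), ordered by the level with Activin A. The genes span from Tead4 at 1.23 TPM to Actg1 at 2675 TPM, and Acta2 has the widest step between the groups.

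Of the 6 actin-binding genes of the calponin and caldesmon kind, 5 rose. Tagln (transgelin, which stabilises actin filaments in contractile cells) had a log2 fold of 0.52 ± 0.05, from 313 ± 19.7 to 449 ± 7.95 CPM (SD, n = 3). Cnn2, a calponin of non-muscle cells whose promoter box is shown above, rose by 0.49 ± 0.06, and Cald1, caldesmon, by 0.40 ± 0.05. The smooth muscle calponin Cnn1 rose by 0.36 ± 0.06 and Tagln2 by 0.24 ± 0.05. The remaining calponin went the other way without being called. Cnn3 stood at 415, 415 and 429 CPM with Activin A and at 398, 391 and 407 without, a log2 fold of -0.07 ± 0.05.

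Tropomyosins lie along the filament and govern which proteins reach it, and their 4 genes moved little. Tpm1 rose by 0.29 ± 0.05 on the log2 scale, from 802 ± 26.0 to 983 ± 9.70 CPM, and Tpm4 by 0.20 ± 0.05. Tpm2 (0.14 ± 0.06) and Tpm3 (0.12 ± 0.05) were not called, although neither gene's groups overlapped.

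Non-muscle myosin II pulls on these filaments. Its heavy chain Myh10 stood at 608, 578 and 587 CPM with Activin A and at 943, 948 and 949.9 CPM without. The libraries within each group lay close together and the fold was 1.60 (log2 0.68 ± 0.05). The other heavy chain, Myh9, rose less in this list, by 0.43 ± 0.06; the difference between the 2 heavy chains was not tested. The regulatory light chains Myl9 (0.43 ± 0.08) and Myl12a (0.40 ± 0.05) rose as well. Their close relative Myl12b stood at 184, 204 and 176 CPM with Activin A and at 195, 203 and 205 without, with overlapping groups and no call (0.10 ± 0.06).

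Crosslinkers tie filaments into bundles and networks, and 4 of 5 rose. Actn1, an alpha-actinin of stress fibres and adhesions (chr12:80167547-80260371, minus strand), stood at 501, 485 and 454 CPM with Activin A and at 875, 860.0 and 883 CPM without, a fold of 1.82 (log2 0.86 ± 0.05). Flnc, the filamin of muscle, stood at 270.0, 254 and 228 CPM with and at 449, 442 and 461 CPM without, a fold of 1.80 (log2 0.84 ± 0.06). In both genes the lowest library without Activin A lay well above the highest library with it. The widely expressed relatives had smaller values: Flna 0.53 ± 0.05 and Actn4 0.46 ± 0.06 on the log2 scale.

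Lima1 was the member called lower. It encodes EPLIN, a LIM protein that bundles filaments and links them to cell junctions (chr15:99778470-99875456, minus strand). Its level was 55.3, 53.9 and 55.4 CPM with Activin A and 45.9, 45.7 and 47.0 CPM without, a log2 fold of -0.25 ± 0.06. Its transcripts did not move together. Lima1-201 (ENSMUST00000073691.4), which begins at the upstream start at position 99875456, stood at 6.18, 5.82 and 6.56 TPM with Activin A and at 2.88, 3.42 and 2.81 TPM without, 2.04-fold lower. Lima1-202 (ENSMUST00000109024.8) begins 55313 bases further into the gene, at position 99820143, just past the CArG box printed above for Lima1. It stood at 2.20, 2.12 and 2.55 TPM with Activin A and at 4.18, 4.02 and 4.49 TPM without, 1.85-fold higher. For each transcript the groups did not overlap, and the share of Lima1-202 in the gene's TPM went from 25.5% ± 0.548 to 49.6% ± 8.06 (SD, n = 3). The lower count of the gene as a whole thus combined a lower upstream transcript and a higher internal one. The call of the gene was lost when transcript length was used as an offset (log2 -0.089 ± 0.13). In limma it was lost too, on log2(TPM + 1) (-0.053 ± 0.13) and on log2(TPM + 0.1) (-0.059 ± 0.14). On log2(TPM + 1) without transcripts under 500 bases the value was -0.21 ± 0.08, again not called. Transcript values are salmon's estimates and were described without a test.

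**Figure D3:**
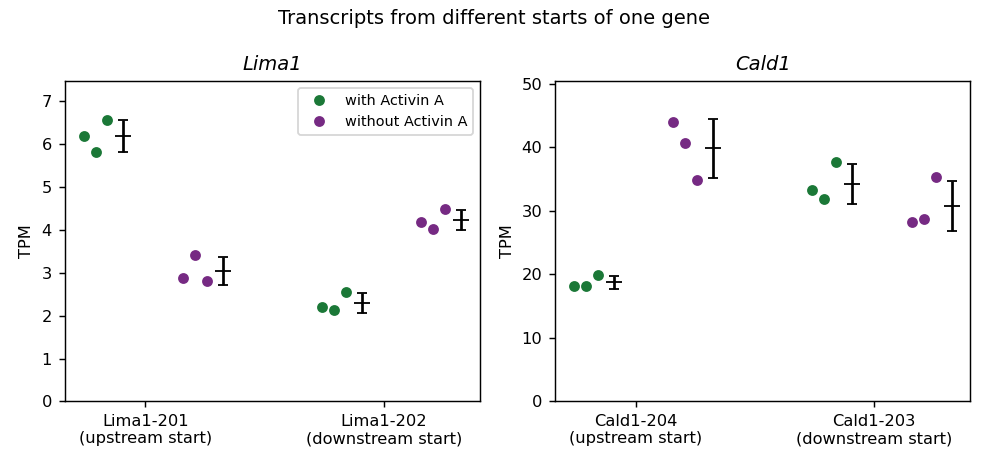
TPM of 2 transcripts each of Lima1 and Cald1 that begin at different starts, in every library (points), with mean and SD (bars), with and without Activin A. Lima1-201 is lower and Lima1-202 higher without Activin A, while in Cald1 the upstream Cald1-204 is higher and Cald1-203 overlaps between the groups.

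Cald1 also changed the balance between starts. Cald1-204 (ENSMUST00000115026.7, start at chr6:34598565, downstream of the TEAD motif printed for Cald1) stood at 18.2, 18.2 and 19.9 TPM with Activin A and at 44.0, 40.7 and 34.8 TPM without, 2.13-fold higher. Cald1-203 (ENSMUST00000115021.7), whose start lies 110877 bases downstream at position 34709442, stood at 33.2, 31.8 and 37.7 TPM with and at 28.3, 28.7 and 35.3 TPM without. The groups of Cald1-203 overlapped, so of these 2 transcripts only the upstream one rose without overlap. Transcripts under 500 bases held 30.7% of the gene's TPM with Activin A and 36.6% without, on 1.30% and 1.49% of its reads. The rule used for transcripts took a different leading transcript, or a mean share that differed by at least 10 points with no overlap. For the latter, the transcript had to hold at least 10% of the gene's TPM in either group. This rule was applied to the members and not to all genes. The count it gave therefore has no share beside it and is not read as a result about them. By it, 7 members showed a shift: Lima1, Cald1, Lats1, Zyx, Tln1, Myh10 and Actn4. The transcripts concerned in Tln1 and Myh10, and 1 of those in Actn4, are annotated as processed transcripts without a coding sequence. The shift of Tln1 rests on Tln1-204, which is 283 bases long and had 6.67 to 39.3 reads per library, and part of that of Zyx on Zyx-208, with 15.1 to 107 reads.

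Among adhesion proteins, 5 of 7 rose. Vcl, vinculin, which couples adhesions to actin and carries both motifs, rose the most, from 467 ± 10.5 to 709 ± 14.7 CPM (log2 0.60 ± 0.05). Pdlim5 (0.35 ± 0.07), Zyx (zyxin, which gathers on strained stress fibres, 0.34 ± 0.08), Tln1 (talin, which links integrins to actin, 0.33 ± 0.06) and Pxn (paxillin, an adhesion scaffold, 0.33 ± 0.07) had similar values. Vasp, which speeds filament growth, was not called (0.18 ± 0.06), nor was the LIM protein Pdlim7 (0.13 ± 0.08), and the groups of both overlapped.

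**Figure D4:**
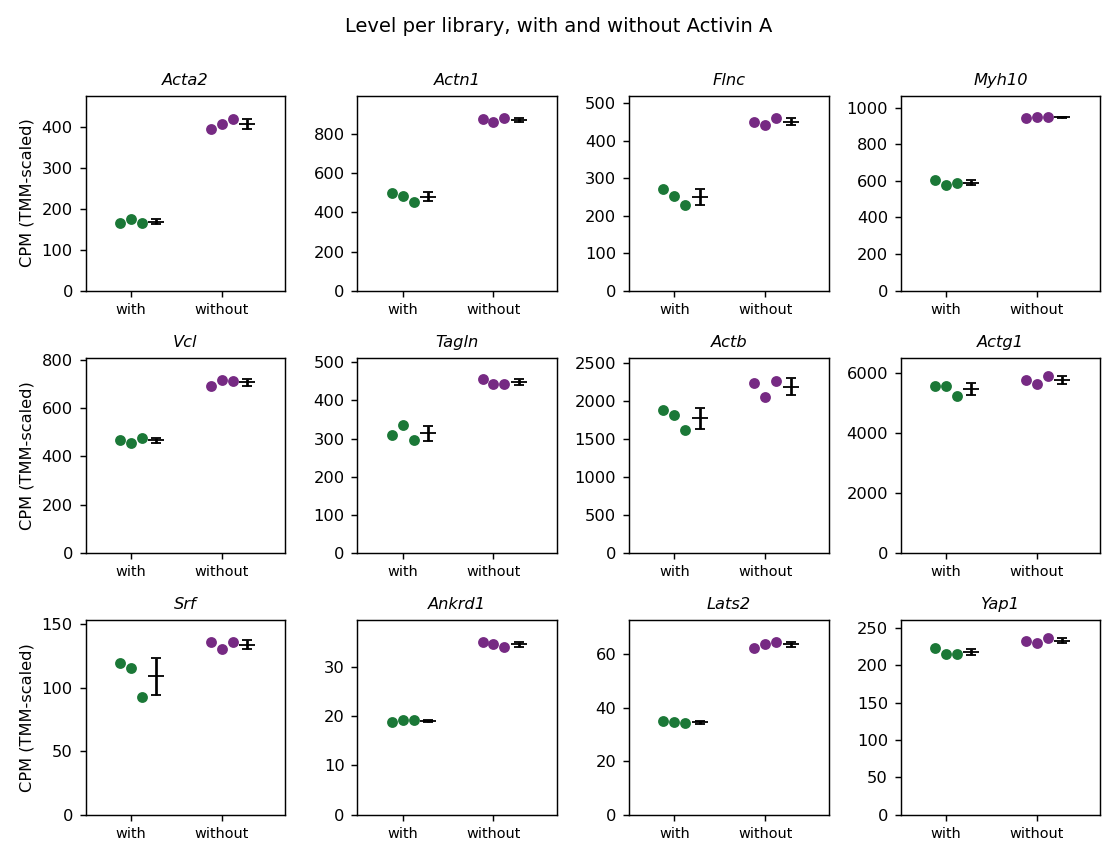
Level of 12 of the genes in each library (points, CPM scaled by TMM) with mean and SD (bars), with Activin A in green and without in purple; each axis starts at 0. Acta2, Actn1, Flnc, Myh10, Vcl, Tagln, Ankrd1 and Lats2 separate clearly, whereas Actg1 and Yap1 sit at nearly one level.

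Srf, the transcription factor of the actin programme (chr17:46548329-46556175, minus strand), stood at 119, 116 and 92.4 CPM with Activin A and at 136, 130.2 and 136 CPM without. The groups did not overlap, and the log2 fold was 0.29 ± 0.08. Replicate 3 with Activin A lay well below its group. The call for Srf was lost when either replicate 1 or replicate 3 without Activin A was left out.

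YAP and TAZ themselves changed little. Yap1 stood at 223, 215 and 215 CPM with Activin A and at 232, 229.9 and 236 CPM without (log2 0.10 ± 0.05), and Wwtr1 at 75.4, 66.4 and 78.4 CPM with and at 79.5, 78.5 and 80.7 CPM without (0.12 ± 0.06). Neither was called, although in both every library without Activin A was the higher. Yap1 was called higher on log2(TPM + 1) without transcripts under 500 bases (log2 0.23), and Wwtr1 when replicate 3 with Activin A was left out (log2 0.16). The 2 target genes in the list rose. Ankrd1, a muscle ankyrin repeat protein and a standard readout of YAP, stood at 18.8, 19.2 and 19.2 CPM with Activin A and at 35.1, 34.6 and 33.9 CPM without, a fold of 1.81 (log2 0.86 ± 0.07). Amotl2, an angiomotin that binds YAP and is induced by it, stood at 307, 288 and 271 CPM with and at 354, 348 and 345 CPM without (log2 0.27 ± 0.05).

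Of the kinases that restrain YAP, Lats2 rose more than most members. It stood at 35.2, 34.6 and 34.1 CPM with Activin A and at 62.5, 64.0 and 64.5 CPM without, a fold of 1.84 (log2 0.88 ± 0.06). Lats1 stood at 33.7, 33.7 and 36.8 CPM with Activin A and at 39.8, 41.9 and 40.8 CPM without (log2 0.24 ± 0.06). Per length, over transcripts of at least 500 bases, Lats2 was above its paralogue in both groups, at 5.74 ± 0.80 against 3.11 ± 0.35 TPM (SD, n = 3) with Activin A and at 10.2 ± 0.73 against 4.11 ± 0.36 TPM without. The transcript Lats1-201 was listed at 0 in all libraries with Activin A and at 0.834, 1.40 and 0.604 TPM without, while Lats1-202 kept to 2.86 to 3.52 TPM in all 6.

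Among the TEAD factors, which bind the motif above, Tead1 stood at 213, 189.5 and 227 CPM with Activin A and at 249.8, 246 and 247 CPM without (log2 0.24 ± 0.06). Tead2 stood at 221, 238 and 209.8 CPM with and at 235, 232 and 221 CPM without (0.04 ± 0.05). Its groups overlapped and it was not called. Tead4 stood at 4.89, 3.66 and 3.79 CPM with and at 5.53, 6.33 and 5.61 CPM without (0.48 ± 0.15), with an error wider than that of any other member.

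Not all members held their call under other processing. How many of all genes were called higher in every alternative was not counted, so the next count is a description only. Under every alternative tried, 17 genes were called higher: Acta2, Tagln, Cnn1, Cnn2, Cald1, Tpm1, Myl9, Myl12a, Myh9, Actn1, Actn4, Flna, Flnc, Vcl, Zyx, Ankrd1 and Amotl2. On log2(TPM + 1) with limma the calls of Actb, Lats1, Lats2, Myh10, Pdlim5, Pxn, Srf, Tead1, Tead4 and Tln1 were lost, and of these Actb, Lats2, Myh10, Pdlim5, Pxn, Srf and Tln1 were called again when transcripts under 500 bases were left out. In that fit Tpm4 was lost too. A length offset ended the calls of Actb, Lats2, Myh10, Pxn, Srf, Tagln2, Tead1, Tead4 and Tln1. Tead4 also lost its call in DESeq2 and when any of 4 single libraries was left out. Lats1 lost its call without replicate 1 with Activin A or replicate 2 without it, and also with the GC and length trend removed, and Tpm4 without replicate 3 of the group without Activin A. Of the 10 genes not called, Cnn3 gained a call in no alternative. Removing the GC and length trend gave higher calls to Actg1, Myl12b, Pdlim7, Tead2, Tpm2, Tpm3 and Vasp.

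Replicate 3 with Activin A, the shallowest library at 9946521 reads, was the lowest of its group in 25 of the 40 genes. It differed from replicates 1 and 2 by a chi-square per degree of freedom of 6.01 and 7.01 over genes, against 3.64 between those 2 and 1.82 to 2.07 within the other group. Without it, 31 members were called higher and 1 lower, and their median log2 fold was 0.28. Calls rose over all genes too: 2808 of 15793 were higher and 2881 lower, against 2155 and 2350 of 15448 with all libraries. The higher count of members is therefore not read as firmer support.

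Several members share sequence with other genes. The strand setting of the counting is not given in the sources used here, so reads of such pairs may have been divided. The share of a gene's 31-base words found elsewhere was 62.2% for Tagln, chiefly in the antisense gene Gm48529 at 1.17 to 2.69 CPM. It was 41.8% for Lats2, chiefly in Gm49361, which was listed at 0 in all libraries. For Actg1 it was 40.2%, chiefly in the pseudogene Gm12715, for Cnn3 32.0%, for Tpm3 27.0%, and for Actb 23.6%. For Vcl it was 25.3%, all in the opposite-strand gene Ap3m1, which stood at 88.0 ± 0.56 CPM in the group given Activin A and at 93.8 ± 2.22 CPM in the other. These genes are uncertain to that extent.

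Other genes of the same pathways are given from 5 companion lists that were also drawn up with earlier results known. Because the 40 were chosen with results known too, the lists are not ranked against them. Of 125 genes, 123 were tested. Of those, 47 were called higher and 20 lower, with a median log2 fold of 0.10, where 14.0% of all genes tested were called higher and 15.2% lower. The count of lower genes lay near that share, and nothing particular to the lists is read from it or from the counts of single lists. Adjusted p-values in the next paragraphs are those of edgeR over all genes tested. The called genes named there were mostly picked for the smallest of these values. The p-values therefore describe the genes and are not independent support.

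Among 32 regulators of actin turnover, 12 were higher and 3 lower (median 0.09). The membrane linkers Ezr (0.56 ± 0.05, adjusted p = 2.18e-06) and Msn (0.47 ± 0.05, adjusted p = 1.81e-06) and the monomer-binding peptide Tmsb4x (0.49 ± 0.06, adjusted p = 1.33e-05) rose. The formin Diaph1 (-0.38 ± 0.05, adjusted p = 0.0001), the GTPase Rhoc (-0.31 ± 0.06, adjusted p = 0.000836) and profilin Pfn2 (-0.33 ± 0.07, adjusted p = 0.00312) fell.

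Of 23 SRF cofactors and targets, 21 were tested, 10 higher and 2 lower (median 0.18). Des (0.99 ± 0.08, adjusted p = 2.26e-07), Fhl1 (0.80 ± 0.08, adjusted p = 5.37e-06) and Csrp1 (0.60 ± 0.05, adjusted p = 9.36e-07), which encode cytoskeletal and LIM proteins, rose with the members. The growth factor response genes Egr1 (-0.22 ± 0.05, adjusted p = 0.00321) and Egr2 (-0.31 ± 0.10, adjusted p = 0.0345) fell. The call of Egr2 was also lost in DESeq2 (adjusted p = 0.204), with no filter (edgeR, adjusted p = 0.0979) and when any 1 of 5 libraries was left out (edgeR, adjusted p = 0.0801 to 0.106; replicate 3 with Activin A was the exception). It turned positive, and was not called, with the length offset and in limma on TPM over all transcripts. The cofactor Mrtfb rose by 0.31 ± 0.08 (adjusted p = 0.0105), a call lost with a length offset and when replicate 2 with Activin A (edgeR, adjusted p = 0.0546) or replicate 2 without it (adjusted p = 0.0678) was left out, and Mrtfa was at 0.06 ± 0.08 (adjusted p = 0.656).

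YAP and TAZ targets outside the 40 went both ways. Of 19 tested, 5 were higher and 5 lower (median 0.04). Ccn2, the target most used as a readout of YAP beside Ankrd1, stood at 224, 230.1 and 232 CPM with Activin A and at 123, 113 and 115 CPM without, 1.96-fold lower (log2 -0.97 ± 0.05, adjusted p = 2.86e-09). Ankrd1 and Ccn2 thus moved in opposite directions in the same libraries. Igfbp3 (-1.91 ± 0.05, adjusted p = 4.56e-12), F3 (-0.41 ± 0.09, adjusted p = 0.0029) and Ccn1 (-0.19 ± 0.05, adjusted p = 0.00806) also fell. The call of Ccn1 was lost when replicate 1 without Activin A was left out (edgeR, adjusted p = 0.0756). Gadd45a (1.19 ± 0.07, adjusted p = 6.28e-09), Myof (0.68 ± 0.07, adjusted p = 2.15e-06) and Arhgef17 (0.56 ± 0.07, adjusted p = 2.09e-05) rose.

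Among 21 Hippo genes other than the Lats kinases, 10 were higher and 2 lower (median 0.10). The giant cadherin Fat1 rose from 269 ± 7.79 to 539.5 ± 11.4 CPM (log2 1.0 ± 0.05, adjusted p = 1.04e-09), and the YAP partner Amot (0.68 ± 0.06, adjusted p = 6.64e-07) and the TEAD cofactor Vgll4 (0.74 ± 0.08, adjusted p = 3.55e-06) rose with Lats2. The kinase Taok3 (-1.08 ± 0.09, adjusted p = 6.21e-07) and the scaffold Wwc1 (-0.34 ± 0.06, adjusted p = 0.000955) fell, and Tead3 was at -0.02 ± 0.09 (adjusted p = 0.909). Of 30 adhesion genes and paralogues of the members, 10 were higher and 8 lower (median 0.05). Parva (0.63 ± 0.05, adjusted p = 2.46e-07) and Lpp (0.47 ± 0.05, adjusted p = 6.91e-06), an integrin-linked adaptor and a LIM protein of adhesions, rose. The LIM gene Pdlim1 (-0.76 ± 0.07, adjusted p = 5.96e-07), the transgelin relative Tagln3 (-0.89 ± 0.15, adjusted p = 0.000406) and Tns1 (-0.65 ± 0.11, adjusted p = 0.000492) fell. On log2(TPM + 1) with limma the calls of Pfn2, Egr1, Mrtfb, Myof, Ccn1, Wwc1 and Tns1 were lost, and Arhgef17, Wwc1 and Tns1 lost theirs with the length offset.

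**Figure D5:**
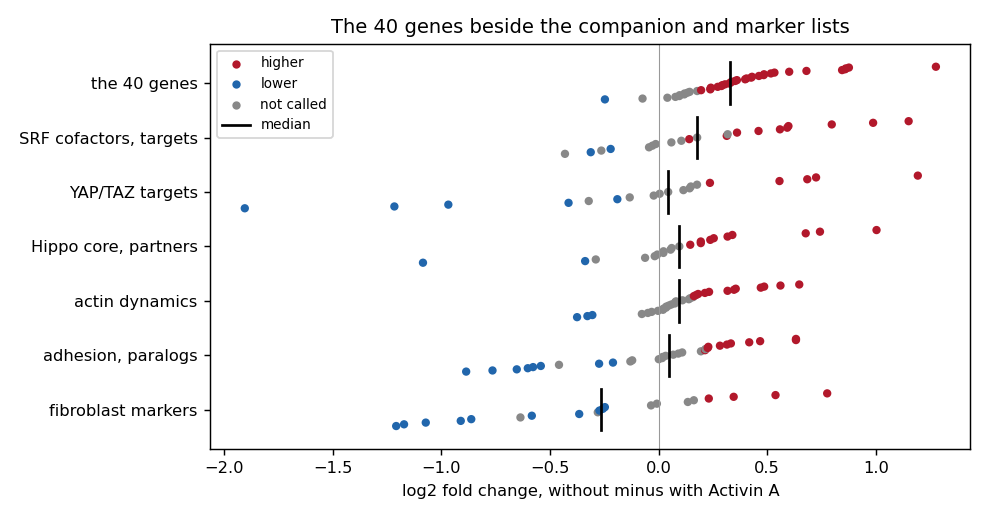
Log2 fold change (without minus with Activin A) of each tested gene of the 40, of the 5 companion lists and of the fibroblast markers, coloured by call, with the median of each list as a bar. The median of the 40 genes lies at 0.33, those of the companion lists between 0.04 and 0.18, and that of the fibroblast markers at -0.26. All lists were drawn up with earlier results known, so the medians are a description.

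Fibroblast feeder cells and muscle cells make many of the 40 products at high levels, so their markers are given here. Of 20 fibroblast markers, 4 were called higher (Col1a1, Col1a2, Col5a1 and Fn1), 10 lower and 6 were not called. Over all genes tested, 14.0% were called higher and 15.2% lower. These shares also stand beside the muscle and epiblast stem cell counts below. Their summed level was 1165 to 1277 CPM with Activin A and 1386 to 1425 CPM without, and Fn1, Col1a1 and Col1a2, which rose, were its most abundant genes. Col1a2 went from 124 ± 3.76 to 212 ± 2.86 CPM, while Thy1 went from 14.0 ± 2.03 to 6.26 ± 1.04 CPM, Col3a1 from 46.2 ± 1.22 to 19.9 ± 0.358 CPM and Dcn from 11.3 ± 0.252 to 6.02 ± 0.821 CPM. None of these 20 markers was at 0, and the part of feeder cells in the members' levels was not tested.

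Of 10 markers of smooth and cardiac muscle, 6 were tested and 4 rose: Myh11, Des, Smtn and Tnnt2. Log2 folds of the 6 ran from -0.03 to 2.99, with a median of 0.67, so the largest exceeded that of Acta2. The summed level of the 10 markers was 185 to 232 CPM with Activin A and 289 to 301 CPM without. Myh11, the myosin of smooth muscle, stood at 0.698 to 1.53 CPM with Activin A and at 2.41 to 3.29 CPM without, against 168 ± 5.47 and 407 ± 12.1 CPM for Acta2. The muscle factors Myocd, on 1 to 8 reads per library, and Nkx2-5, on 0 to 2 reads, were near 0, as was Myl7 on 1 to 6 reads. Of 10 epiblast stem cell markers 7 fell and 2 rose (Sox2 and Lin28a). Their log2 folds ran from -4.68 to 0.67, with a median of -0.69, so at least 1 marker fell far more than the sums show. Their sums were 1580 to 1622 CPM with Activin A and 1136 to 1162 CPM without. Taken as a sum, RNA of these markers was thus present in both groups at different levels. Whether the identity of the cells differed was not tested.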

How the data were processed

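Per the file headers, the deposited tables hold, for each of 133618 transcripts, the estimated count of reads and the TPM value that salmon writes; estimated counts are unnormalized, and TPM corrects for transcript length and library total. Per the submitters' processing notes, salmon, DESeq2 and edgeR were used. Neither their versions nor the genome build, annotation or strand setting is given in the sources used here. Libraries held 9946521 to 16350923 reads with Activin A and 13567995 to 14992042 without. Per the labels, libraries were made with a stranded kit.

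Transcripts were matched to GENCODE M21 (GRCm38), 133399 of them with the version ignored; the 219 unmatched ones, with 0.140% ± 0.0066 of reads (SD, n = 6), were left out. Estimated counts were summed per gene and rounded. The test was that of edgeR 4.0.16 (R 4.3.3), with filterByExpr (count 10, total 15), TMM scaling and a robust quasi-likelihood F test, adjusted by Benjamini-Hochberg over 15448 genes at a threshold of 0.05. The standard error is the size of the log2 fold divided by the square root of F. The fit was also run on simulated counts drawn from its own dispersions. They had 200 genes changed, far fewer than were called here, so nothing about these data is read from that run. Samples were grouped by title and genotype label.

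The members and all gene lists were chosen with earlier results of these data known. Values in every library are given for the 6 largest and 6 smallest folds, the cytoplasmic actins, the regulators and the YAP targets; of each companion list, up to 3 called genes per direction with the smallest p-values are named, plus Mrtfa, Mrtfb, Tead3, Ccn1 and Ccn2; a result among them is left out here. Genes named with the markers were chosen after their values were seen. Other settings were DESeq2 1.42.0, scaling by RLE or upper quartile, limma 3.58.1 on log2(TPM + 1) and log2(TPM + 0.1), no filter, a filter of 1 CPM in 3 libraries, a length offset, removal of trends on GC content and length (mgcv 1.9.3), a replicate block and each library left out. Limma without transcripts under 500 bases, and all alternatives for single companion genes, were chosen after seeing the data. Same-numbered replicates did not deviate together. Proteins were not analysed here.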

Additional observations from a re-analysis of the deposited data

How the results depend on the processing

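Leaving out 1 library at a time gave 26 to 31 members higher and 1 lower, 3246 to 5689 genes called in all, and 34 to 51 companion genes higher and 15 to 20 lower. RLE and upper-quartile scaling, DESeq2, both other filters and the GC and length trend kept all these counts within 1.5 times the values in the text; with that trend removed 35 members were higher. With limma on log2(TPM + 1), 1559 genes, 19 members higher and 0 lower, and 22 and 8 companion genes were called. On log2(TPM + 0.1) these were 1504 genes, 19 and 0 members, and 22 and 9 companion genes. Without transcripts under 500 bases they were 2269 genes, 26 and 0 members, and 28 and 11 companion genes, and with a length offset 2050 genes, 20 and 0 members, and 27 and 13. At an unadjusted p under 0.05, 33 members were higher in every limma fit and 30 with the length offset, against 32 in the main fit. At that threshold 1 member was lower without short transcripts and 0 in the other limma fits and with the length offset. The members' median log2 fold was 0.31 to 0.40 in these fits, against 0.33 in the main fit. The cause of the changed counts was not tested. Reversed signs were those of Cnn3 without short transcripts (0.022), Tead2 without replicate 3 with Activin A (leave-one-out range -0.0026 to 0.087) and Mrtfa without that library (-0.018 to 0.14). Egr2 was at 0.22 on log2(TPM + 1), 0.28 on log2(TPM + 0.1) and 0.19 with the length offset. Tead3 was at 0.090 and 0.097 on those TPM scales, 0.058 without short transcripts, 0.047 with the length offset, 0.037 with the trend removed and -0.11 to 0.095 over the removal of single libraries. None of these reversed values was called.

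Replicate numbers did not pair the samples: same-numbered libraries had correlations of -0.025, -0.052 and -0.057 between their deviations from the group means. With the number as a replicate block, 4422 genes, 30 members higher and 1 lower, and 47 and 19 companion genes were called; Egr2 was among those lost (edgeR, adjusted p = 0.0565). Depth limits Tead4, at 38 to 94 reads, the transcripts of Lima1, Lats1, Tln1 and Zyx, and the muscle factors near 0.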
